A study of Mus musculus with 12 samples.

Results

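The comparison asked whether a knockout moved RNA levels in the same way in both subsets of mouse fetal liver progenitors, those with and those without the paired immunoglobulin-like receptor (PIR). For each gene, the knockout effect in PIR- cells was subtracted from the knockout effect in PIR+ cells, and this difference is called the interaction. It was computed on log2(value + 1) for 4395 autosomal genes that reached a value of 10 in 3 or more libraries, out of 23420 genes in the table. A gene could pass this filter through 1 group alone, so the genes tested from a list are not all of its members. All 12 libraries of the series entered, 3 for each of the groups PIR+ wt, PIR+ KO, PIR- wt and PIR- KO. Each library was made from a tube of 100 sorted liver cells that lacked lineage markers and carried c-Kit, with spike-in RNA and molecular barcodes. A value is a normalised molecule count as deposited. The labels give the genotype only as wt or KO and name neither the target gene nor a strain. They do not say whether libraries of a group came from separate embryos, so p-values measure the spread between these samples, which may be technical.

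PIR is made by the activating Pira genes and by the inhibitory gene Lilrb3. In the fetal liver it marks progenitors with lymphoid and thymus-seeding potential, whereas the PIR- fraction of c-Kit+ cells includes early B-lineage cells. An interaction asks about the difference of 2 differences, so its error is larger than that of either knockout effect. A negative interaction means that the value in PIR+ cells went down with the knockout relative to its course in PIR- cells.

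The titles, which set the groups, were checked against the PIR genes. Pira1, Pira2 and Lilrb3 were at 0 in all 6 PIR- libraries and between 4.7 and 35.7 in the 6 PIR+ libraries. In 6 libraries the title and the markers field disagree on PIR. The embryonic day of the source name goes with the markers field, E12.5 where it gives PIR+ and E14.5 where it gives PIR-. The day may therefore be wrong for the same 6 libraries, and the true day could follow the PIR subset. Results are also given within each day as labelled. The markers field lists IL7Ra+ for all 12 libraries whereas the series title has PIR- cells as IL7R-. Il7r was 9.7 to 20.3 in PIR+ and 16.1 to 24.4 in PIR- libraries. Library sums ran from 155374.2 to 284648.3, and their interaction was -0.0893 on the log2 scale (exact two-sided permutation p = 0.69 over 400 assignments). Globin RNA was high in 5 libraries, namely PIR+ wt replicate 3, PIR- wt replicates 2 and 3, PIR+ KO replicate 1 and PIR- KO replicate 1, and all 5 are among the 6 in which title and markers field disagree. The female-specific RNA Xist was 31.3 to 34.2 in PIR+ KO libraries and 2.7 to 18.6 in the other 9. The Y-linked gene Ddx3y was 0.8 to 2.0 in PIR+ KO libraries and 4.2 to 9.2 in the others. The sex of the embryos and the PIR+ KO group therefore cannot be told apart, and only autosomal genes were used.

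For most genes the data did not separate the knockout effects of the subsets. The interaction passed the test (limma, Benjamini-Hochberg adjusted p under 0.05) for 22 of 4395 genes, or 0.501%. It was positive for 3 (0.0683%) and negative for 19 (0.432%). The absolute interaction of the called genes was 1.05 to 3.80, against a median standard error of 0.39 over all genes. The adjusted p was 0.0435 for the last gene inside the threshold and 0.0511 for the first outside it. Without adjustment, 243 genes (5.53%) had p under 0.05. On values rescaled by median-of-ratios size factors (referred to here as scaling), 33 genes were called, 12 positive and 21 negative (0.751% in all, 0.273% and 0.478%). The median interaction of all genes was -0.12 on the deposited scale and -0.02 after scaling. Of the 22, 19 were called on both scales, and Tyrobp, Tsc22d1 and Csf1r were called on the deposited scale alone. The count was 14 without PIR+ wt replicate 2 and 6 without the 5 globin-rich libraries, a fit chosen after the data were seen.

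The knockout effect itself was called for 37 genes in PIR+ cells (0.842%), 17 higher (0.387%) and 20 lower (0.455%). In PIR- cells it was called for 58 genes (1.32%), 48 higher (1.09%) and 10 lower (0.228%). After scaling, 43 genes were called in PIR+ cells (0.978%), 14 higher (0.319%) and 29 lower (0.66%). In PIR- cells 77 were called (1.75%), 47 higher (1.07%) and 30 lower (0.683%). Leaving out 1 library changed the PIR- count to 89 (PIR- wt replicate 3), 88 (PIR- KO replicate 1), 36 (PIR- KO replicate 2) or 32 (PIR- KO replicate 3). Over both subsets 88 genes were called, and for 66 of these the interaction was not called. Of the genes called in both subsets, 7 in number, Crip1 alone had a called interaction. The 22 interaction genes fell into 2 sets of 11. In the first set the knockout effect was called in PIR- cells alone. In the second it was called in PIR+ cells alone, or for Crip1 in both.

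**Figure D1:**
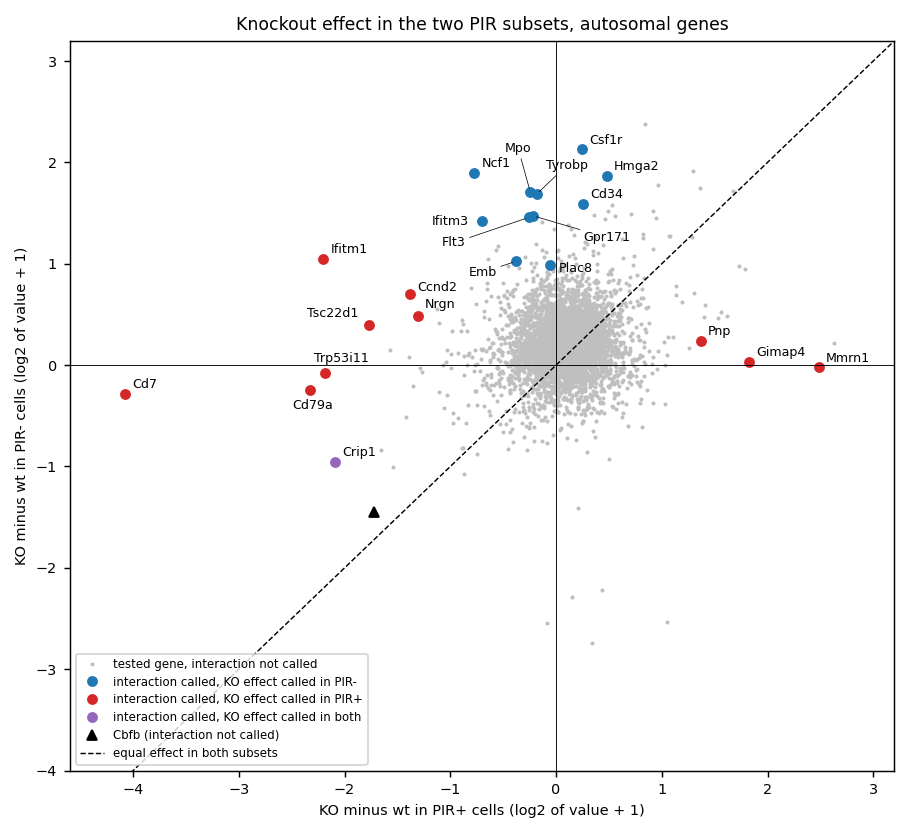
Each point is 1 of 4395 autosomal genes, placed by its knockout effect in PIR+ cells (x axis) and in PIR- cells (y axis), both as KO minus wt in log2 of value + 1. Genes with equal effects lie on the dashed line. The 22 called genes are coloured by the subset in which the knockout effect was called, and Cbfb (triangle) lies near the line.

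All 11 genes of the first set were higher in PIR+ than in PIR- cells in wild type. On the log2 scale that gap was smaller in KO for all 11, and the called change was a higher level in PIR- cells. For 8 of the 11 the level in PIR+ cells was lower in KO, without a call. In normalised molecules the gap grew for Hmga2, Cd34 and Csf1r. The knockout effect in PIR- cells was 0.99 to 2.13 on the log2 scale, and in PIR+ cells it was -0.77 to 0.48. In PIR- cells the libraries of the genotypes did not overlap for 10 of the 11, against 15.4% of all tested genes. In PIR+ cells they did not overlap for 1 of the 11, against 10.9% of all tested genes. The non-overlap in PIR- cells comes with the calls there and is no separate evidence. In these pooled cells, more cells of a type and more RNA per cell cannot be told apart.

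Myeloid genes were the clearest group within this set. Ncf1 (chromosome 5, 134220053 to 134229625, minus strand, GRCm38) encodes a subunit of the phagocyte oxidase. It was 43.2, 48.0 and 65.1 in PIR+ wt, 24.8, 26.9 and 38.8 in PIR+ KO, 2.7, 0 and 0 in PIR- wt, and 4.2, 5.8 and 4.4 in PIR- KO. The genotypes did not overlap in either subset, and they moved in opposite directions. The interaction was -2.67 ± 0.47 (SE, adjusted p = 0.000368), from an effect of 1.90 in PIR- cells and -0.77 in PIR+ cells, of which the latter was not called. With PIR- wt near 0, its size depends on the added constant: -4.79 with 0.1 and -1.46 with 5, called in both fits. The authors' DESeq2 p-value for Ncf1 between the genotypes in PIR+ cells was 0.000139, so the call in PIR- cells alone depends on the test. Mpo (chromosome 11, 87793581 to 87804413), the peroxidase of neutrophil granules, was 47, 57.2 and 66.4 in PIR+ wt and 45.4, 41.1 and 57 in PIR+ KO. In PIR- cells it was 12.7, 3.1 and 4.7 in wt and 24.9, 29.4 and 13.2 in KO. PIR- libraries of the genotypes stood apart, by a narrow gap between 12.7 and 13.2, and PIR+ libraries overlapped. The interaction was -1.95 ± 0.38 (SE, adjusted p = 0.00111). As a share of the PIR+ mean, the PIR- mean of Mpo was 12% in wt and 47.0% in KO.

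Tyrobp and Csf1r act in signalling of monocytes and were also higher in PIR- KO than in PIR- wt on average. Tyrobp, which encodes the adaptor DAP12 of activating receptors, was 81.2, 121 and 109.1 in PIR+ wt and 73.9, 75.9 and 130 in PIR+ KO. It was 8, 0.8 and 1.6 in PIR- wt and 13.8, 11.5 and 6.6 in PIR- KO, and the genotypes overlapped in both subsets. The interaction was -1.87 ± 0.41 (SE, adjusted p = 0.00585). Csf1r, the receptor for colony-stimulating factor 1, was 1.1, 0.8 and 0 in PIR- wt and 6.9, 7.5 and 3.7 in PIR- KO. In PIR+ cells it was 23.5, 21 and 26.4 in wt and 21.8, 19.6 and 50.9 in KO. PIR- libraries did not overlap between genotypes, and PIR+ libraries did. The interaction was -1.89 ± 0.49 (SE, adjusted p = 0.0435).

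Of the list of neutrophil and monocyte genes, 29 were in the table and 9 were tested. The interaction was called for 4, all negative, namely Ncf1, Mpo, Tyrobp and Csf1r, beside 0.501% of all tested genes. The list median was -1.72, beside -0.12 for all tested genes, with a median knockout effect of 1.17 in PIR- and -0.24 in PIR+ cells. Prtn3, a granule protease, had an interaction of -1.72 that was not called (adjusted p = 0.13). Sfpi1, which encodes the myeloid transcription factor PU.1, had means of 51.9 in PIR+ wt, 60.6 in PIR+ KO, 8.93 in PIR- wt and 16.1 in PIR- KO and was not called either. Irf8, a factor of monocyte and dendritic cell development, and Coro1a, an actin regulator, had interactions of -0.34 and 0.15. The summed level of the list was 156.1 to 205.4 in PIR- wt, 207.5 to 236.5 in PIR- KO, 533.4 to 730.6 in PIR+ wt and 542.3 to 801.3 in PIR+ KO libraries. Of 6 macrophage markers in the table only Csf1r was tested, and their summed level was at most 8.1 in a PIR- library.

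The second group of this set belongs to multipotent progenitors. Flt3 (chromosome 5, 147330741 to 147400489, minus strand), a receptor tyrosine kinase of multipotent and lymphoid progenitors, was 9.5, 3.1 and 6.2 in PIR- wt and 15.9, 20.2 and 16.9 in PIR- KO. It was 64.1, 71 and 86.1 in PIR+ wt and 53.9, 63.7 and 66.2 in PIR+ KO. The genotypes stood apart in PIR- cells and overlapped in PIR+ cells, and the interaction was -1.72 ± 0.35 (SE, adjusted p = 0.00197). Cd34 (chromosome 1, 194938819 to 194961279), a sialomucin of progenitors, was 8, 5.4 and 4.7 in PIR- wt and 19.1, 19 and 21.3 in PIR- KO. Its PIR+ libraries held 130.1, 162.4 and 166.1 in wt and 159.3, 177.3 and 209.9 in KO. Again PIR- libraries of the genotypes stood apart and PIR+ libraries overlapped. The interaction of Cd34 was -1.34 ± 0.30 (SE, adjusted p = 0.00754).

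Hmga2 (chromosome 10, 120361275 to 120476469, minus strand), a chromatin protein of fetal stem cells repressed by let-7 microRNAs, had the strongest knockout call in PIR- cells. It was 16.4, 9.3 and 18.6 in PIR- wt and 59.8, 62.3 and 43.3 in PIR- KO, an effect of 1.87 (adjusted p = 1.22e-10). In PIR+ cells it was 107.2, 127.6 and 173.5 in wt and 156.3, 169.9 and 244.9 in KO, an effect of 0.48 that was not called. The subsets moved the same way for this gene, and the interaction of -1.39 ± 0.30 (SE, adjusted p = 0.00534) is a difference in size. On untransformed values the sign depended on the scale for 3 genes of this set. Hmga2 gained 54.3 normalised molecules in PIR+ and 40.4 in PIR- cells, Cd34 gained 29.3 and 13.8, and Csf1r gained 7.13 and 5.40, so that the untransformed interaction was positive (13.9, 15.5 and 1.73, adjusted p = 1 for each).

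Of 12 tested genes on the list of stem and multipotent progenitor genes, the interaction was called for Flt3, Cd34 and Hmga2, all negative. Over all tested genes 0.501% were called. The list median was -0.31, beside -0.12 for all. Kit, the receptor used for the sort, had an interaction of -0.10, with a 95% interval from -0.76 to 0.55. Mycn and Lmo2, transcription regulators of progenitors, had interactions of -0.25 and -0.18. Hlf, a factor of stem cells, had means of 6.07 in PIR+ wt and 16.9 in PIR+ KO and at most 1.7 in a PIR- library, with an interaction of 0.92 that was not called. Of 9 tested genes of the fetal Lin28b program, which includes Hmga2, all 9 had interactions below 0 (median -0.25) and 1 was called. Of all tested genes 35.8% had interactions above 0 on the deposited scale and 47.6% after scaling, so most genes lay below 0.

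The other 4 genes of the set encode membrane or small cytoplasmic proteins. Plac8, a small cysteine-rich protein abundant in myeloid and lymphoid precursors, was 103.4, 77.5 and 107.9 in PIR- wt and 168.4, 182.2 and 224.8 in PIR- KO. PIR+ libraries held 256.4, 261.8 and 241.3 in wt and 213.3, 220.8 and 302.6 in KO. The PIR- genotypes stood apart, and the PIR- mean was 38.0% of the PIR+ mean in wt and 78.1% in KO. This interaction was the smallest of the 22 called, -1.05 ± 0.25 (SE, adjusted p = 0.0137). Ifitm3, an interferon-inducible membrane protein that restricts virus entry, was 2.7, 2.3 and 0.8 in PIR- wt and 5.3, 5.8 and 8.8 in PIR- KO. In PIR+ cells Ifitm3 was 14, 32.9 and 43.4 in wt and 17, 14.9 and 17.5 in KO, which overlap, and its interaction was -2.12 ± 0.48 (SE, adjusted p = 0.00774). Emb, the adhesion glycoprotein embigin, had means of 12.3 ± 2.30 in PIR- wt and 25.9 ± 1.65 in PIR- KO (SD, n = 3) and an interaction of -1.40 ± 0.31 (SE, adjusted p = 0.00754). Gpr171, a G-protein-coupled receptor, had means of 4.33 ± 2.48 and 12.8 ± 0.839 (SD, n = 3) and an interaction of -1.69 ± 0.38 (SE, adjusted p = 0.00754).

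**Figure D2:**
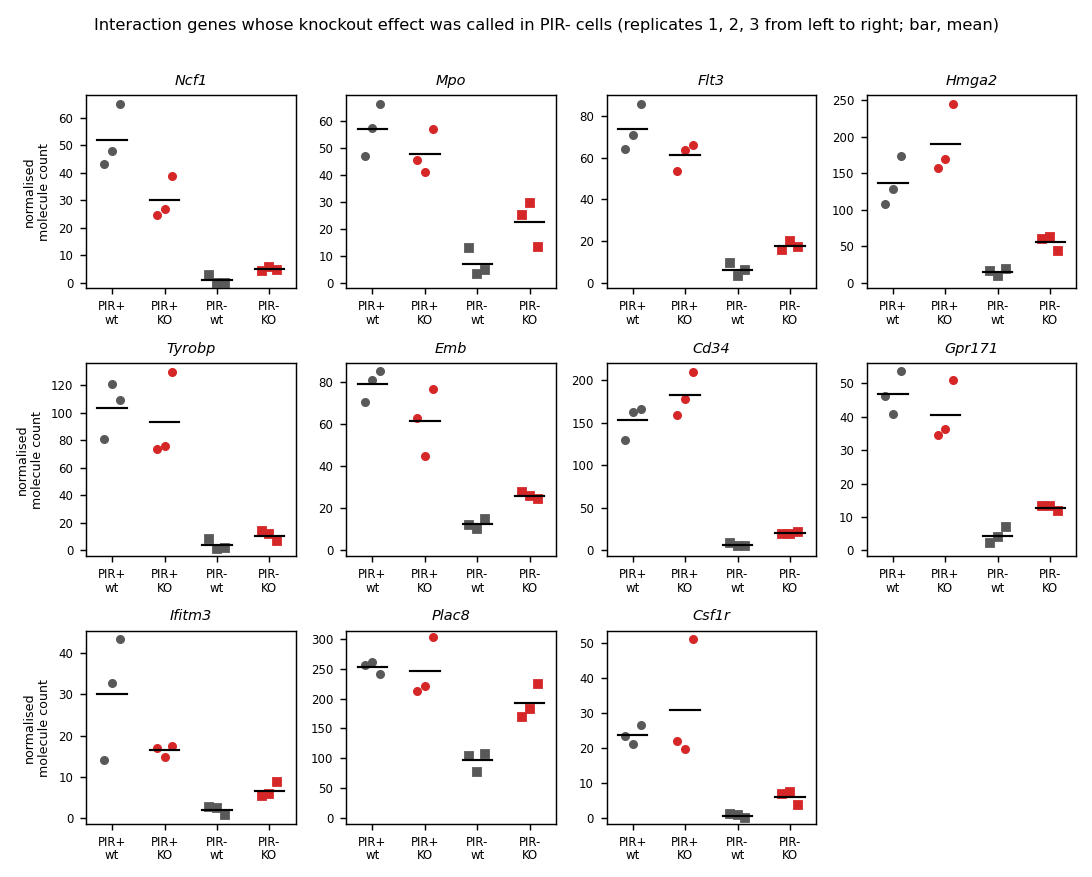
Normalised molecule counts per library (y axis, linear) of the 11 interaction genes whose knockout effect was called in PIR- cells, in the 4 groups of 3 libraries (x axis), with a bar at the mean. PIR- KO squares sit above PIR- wt squares for 10 genes and overlap for Tyrobp, and PIR+ circles lie above all PIR- squares in each panel except that of Plac8, where PIR- KO (up to 224.8) overlaps PIR+ KO (from 213.3).

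Calls in this set differed in how far they rested on single libraries. Ncf1, Mpo, Flt3, Hmga2 and Tyrobp were called in all 12 fits that leave out 1 library. Emb lost the call without PIR+ KO replicate 2 (-1.20), Gpr171 without PIR- wt replicate 1 (-1.35), and Cd34 without PIR+ wt replicate 2 (-1.29) or PIR+ KO replicate 1 (-1.25). The adjusted p of these 3 genes ranged over those fits from 0.00189 to 0.0752, from 0.000175 to 0.0636 and from 0.00103 to 0.0629. Ifitm3 lost it without PIR+ wt replicate 2 (-1.98), PIR+ wt replicate 3 (-1.79) or PIR- KO replicate 3 (-1.92), and its adjusted p was 0.000961 to 0.135. Plac8 lost it without PIR+ wt replicate 2 (-1.03), PIR- wt replicate 2 (-0.90), PIR+ KO replicate 1 (-0.96), PIR+ KO replicate 2 (-0.99) or PIR- KO replicate 3 (-0.93), with adjusted p from 0.00292 to 0.13. Csf1r kept it in 4 of the 12 fits. It lost it without PIR+ wt replicate 1 (-1.89), 2 (-1.97) or 3 (-1.81), PIR- wt replicate 3 (-1.57), PIR+ KO replicate 1 (-1.71) or 2 (-1.64), or PIR- KO replicate 1 (-1.78) or 2 (-1.73). Its adjusted p over the 12 fits was 0.00623 to 0.314.

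The first set was also fitted without the 5 globin-rich libraries and, separately, with globin as a term. Without the 5 libraries, PIR- wt was left with replicate 1 alone, which had the highest Mpo, Ncf1, Tyrobp and Flt3 of its group. The lone library is then assumed to vary like the other groups. All 11 interactions stayed below 0 in that fit, between -2.14 and -0.11, and Gpr171 alone was called. Mpo was then -0.70, Ncf1 -1.19, Flt3 -0.95, Hmga2 -0.81, Cd34 -0.82, Csf1r -1.10 and Tyrobp -0.11. With the log2 globin sum as a term in the model and all 12 libraries kept, 9 of the 11 were called, with interactions of -2.46 to -1.25. Mpo was then -1.90, Hmga2 -1.42 and Flt3 -1.59. The 2 that were not called are Plac8 (adjusted p = 0.136) and Csf1r (0.0816), whose adjusted p ranged over all alternatives on the log scale from 0.00144 to 1 and from 0.00623 to 1. Among the 6 libraries in which title and markers field agree on PIR, Tyrobp had the other sign (0.27), and the other 10 were -1.90 to -0.43. Ncf1 was then -0.94, Mpo -0.47 and Csf1r -0.43, against -2.67, -1.95 and -1.89 with all 12 libraries. Gpr171 alone lay further from 0 (-1.90) than with all 12 (-1.69). That fit leaves PIR- wt and PIR+ KO with a single library each.

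The second set of 11 held the genes whose knockout effect was called in PIR+ cells. The level in PIR+ KO was lower than in PIR+ wt for 8 and higher for 3. PIR+ libraries of the genotypes stood apart for all 11, against 10.9% of all tested genes, which comes with the calls there and is no separate evidence. PIR- libraries stood apart for 2, Ifitm1 and Crip1, which is near the 15.4% of all tested genes. For Ifitm1 they did so by a narrow gap, between 3.1 in wt and 3.2 in KO. In the authors' deposited table, the p-value for wild type against knockout in PIR+ cells was under 0.05 for all 11 of these genes for 4 of the 11 in the first set, and for 208 of 4383 tested genes with such a p-value (4.75%). The second set was chosen by a knockout call in PIR+ cells on the same values, so its count is no separate evidence. That table's header does not say whether those p-values are adjusted.

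Ifitm1 (chromosome 7, 140967221 to 140969825), a small membrane protein induced by interferon and also known from germ cells and progenitors, had the smallest adjusted p of the interaction. It was 49.5, 49.3 and 59.7 in PIR+ wt and 4.2, 16.2 and 16.7 in PIR+ KO. In PIR- cells it was 1.6, 2.3 and 3.1 in wt and 3.2, 5.2 and 11 in KO. It fell in PIR+ cells, by 2.20 on the log2 scale, and the PIR- values lay higher in KO without a call (1.05, adjusted p = 0.118). The interaction was -3.25 ± 0.48 (SE, adjusted p = 4.96e-06). The PIR- mean was 4.42% of the PIR+ mean in wt and 52.3% in KO. Ifitm3, its neighbour on chromosome 7 (141009586 to 141010770), belongs to the first set, and Ifitm2, another family member, had an interaction of -0.28. Reads of these similar genes may be shared, and how they were assigned is not given in the sources used here. Of 13 tested interferon and Ifitm genes, Ifitm1 and Ifitm3 were called, beside 0.501% of all tested genes. The list median was -0.34, beside -0.12 for all.

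Genes that were high in PIR+ wild type and lower in PIR+ KO included Ccnd2, Nrgn, Tsc22d1 and Cd7. Ccnd2 (chromosome 6, 127125162 to 127152193, minus strand), a D cyclin of the G1 phase, was 55.2, 62.5 and 83.4 in PIR+ wt and 19.4, 20.6 and 38 in PIR+ KO. It was 16.4, 4.6 and 10.1 in PIR- wt and 12.2, 18.5 and 16.9 in PIR- KO. Only the PIR+ genotypes stood apart, and the interaction was -2.07 ± 0.38 (SE, adjusted p = 0.000404). The other D cyclins were not called. Ccnd1 had an interaction of -0.97 (adjusted p = 0.405) and rose in PIR- cells, by 1.44, from a mean of 5.23 to 15.3. Ccnd3 had an interaction of 0.64, which was called only after scaling (0.76, adjusted p = 0.0159).

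Nrgn (chromosome 9, 37544492 to 37552904, minus strand) encodes the calmodulin-binding protein neurogranin. It was 62.2, 76.3 and 76.6 in PIR+ wt, 26.4, 29.4 and 28.9 in PIR+ KO, and at most 5.9 in a PIR- library. Its interaction was -1.80 ± 0.42 (SE, adjusted p = 0.0103). Tsc22d1, a leucine zipper regulator, was 48.2, 44.1 and 39.3 in PIR+ wt, 12.1, 6.4 and 22.1 in PIR+ KO, and at most 6.6 in a PIR- library, with an interaction of -2.17 ± 0.50 (SE, adjusted p = 0.00782). For both, the difference lay in PIR+ cells, where the genotypes did not overlap.

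Cd7 (chromosome 11, 121036747 to 121039418, minus strand), a surface protein of T cells, natural killer cells and their early precursors, was 21.6, 19.1 and 14.9 in PIR+ wt and 0, 0.5 and 0 in PIR+ KO. It was 0, 0.8 and 0 in PIR- wt and listed at 0 in PIR- KO. Cd7 thus had a level well above 0 in 1 group alone. The fitted interaction was -3.80 ± 0.94 (SE, adjusted p = 0.0219), and with a group at 0 its size depends on the added constant. Cd7 reached 10 in PIR+ wt alone and so passed the filter on low values through the group where it is high. It is the 1 called gene of the 22 that reached 10 in a single group. Cd7 is given as a description, and its call is read no further. Ncf1, Ifitm3, Tsc22d1, Nrgn and Csf1r reached 10 in PIR+ groups alone, and Cd79a and Trp53i11 in PIR- groups alone. For Ncf1, Ifitm3 and Csf1r the called knockout effect lay in PIR- cells, where no library reached 10. The list of T-lineage and Notch genes had 26 in the table, of which 7 were tested. An unadjusted interaction p under 0.05 was found for 3, Cd7 among them, beside 5.53% of all tested genes. Because Cd7 entered through the filter in this way, the count is given as a description. Tcf7 and Gata3, transcription factors of early T-lineage cells, were not tested, with means of 2.17 and 3.27 in PIR+ wt and 0.333 and 2.1 in PIR+ KO. Notch1, the receptor that starts T-lineage specification, rose in PIR- cells, by 0.93, with values of 13.3, 11.6 and 16.3 in wt and 28.6, 19.6 and 34.5 in KO. Its PIR+ means were 58.1 and 59.6, and its interaction was -0.91 (adjusted p = 0.405, 95% interval -1.55 to -0.26).

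Thymus homing genes had interactions on both sides of 0 and no call on the deposited scale, and those described here were below 0. Ccr9, the chemokine receptor for CCL25, was 74.9, 53.9 and 68.5 in PIR+ wt and 15.8, 25.5 and 23.6 in PIR+ KO. It was at most 5.1 in a PIR- library. Its knockout effect was called in PIR+ cells (-1.57, adjusted p = 0.00237), and its interaction of -1.72 was not (adjusted p = 0.0797, 95% interval -2.67 to -0.78). Ccr7, a second homing receptor, had an interaction of -1.68 and Selplg, the selectin ligand PSGL-1, one of -0.85 (adjusted p = 0.631 and 0.478). Ccr7 was 12.1, 18.4 and 14.9 in PIR+ wt and 6.7, 4.9 and 7.6 in PIR+ KO. Like Cd7 it reached 10 in PIR+ wt alone, the group where it is high, so its value is given as a description. Of 14 tested genes on this list 0 were called for the interaction by limma. An unadjusted p under 0.05 was found for 4, beside 5.53% of all tested genes. Interactions were below 0 for 10 and above 0 for 4, beside 35.8% above 0 of all tested genes. The list median was -0.42, beside -0.12 for all.

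Crip1, Cd79a and Trp53i11 were higher in PIR- than in PIR+ cells in wild type, and on the log2 scale that gap was wider in KO. In normalised molecules the gap was narrower in KO for Crip1 and Cd79a. Crip1 (chromosome 12, 113146316 to 113153879), a small LIM-domain protein, fell in both subsets. It was 94.6, 98 and 85.4 in PIR+ wt and 25.4, 18.1 and 19.8 in PIR+ KO, against 175.5, 226.2 and 214.2 in PIR- wt and 84.2, 102.6 and 133.7 in PIR- KO. The genotypes stood apart in both subsets. The fall was 2.09 in PIR+ and 0.95 in PIR- cells on the log2 scale, and the interaction was -1.14 ± 0.27 (SE, adjusted p = 0.0151). In molecules the fall was larger in PIR- cells (98.5 against 71.6), so the untransformed interaction had the other sign (26.9, adjusted p = 1).

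Cd79a (chromosome 7, 24897381 to 24902197), which encodes the Ig-alpha signalling protein of B cells, was 8.9, 5.9 and 2.7 in PIR+ wt and 0, 1 and 0 in PIR+ KO. In PIR- cells it was 174.9, 244 and 237.4 in wt and 154.1, 148.8 and 266.7 in KO. Its interaction of -2.09 ± 0.38 (SE, adjusted p = 0.000404) therefore rests on low values in PIR+ cells, and on untransformed values it was 23.4 (adjusted p = 1). Trp53i11, a p53-inducible protein, had the same order of groups, with 5.7, 3.3 and 6.8 in PIR+ wt, 0.6, 0.5 and 0 in PIR+ KO, means of 62.6 and 60.4 in PIR- cells and an interaction of -2.11 ± 0.42 (SE, adjusted p = 0.00158). With 5 added before the log in place of 1, neither was called (Cd79a -0.75, adjusted p = 0.462, and Trp53i11 -0.85, adjusted p = 0.41). The adjusted p of Cd79a ranged over all alternatives on the log scale from 6.95e-09 to 0.99, and that of Trp53i11 from 0.000563 to 0.785.

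Of 23 tested B-lineage genes, Cd79a was the 1 with a called interaction, beside 0.501% of all tested genes. An unadjusted p under 0.05 was found for 4, beside 5.53% of all tested genes. The list median was -0.42, beside -0.12 for all. The median knockout effect of the list was -0.40 in PIR+ and -0.00 in PIR- cells, the subset where these genes are abundant. Igll1 and Vpreb1, the surrogate light chain genes, had PIR+ means of 0.867 and 0.233 in wt and were listed at 0 in PIR+ KO. Vpreb3 was 2.17 in PIR+ wt and 0.40 in PIR+ KO, a called fall in PIR+ cells with an interaction of -0.84 that was not called. Ebf1, a factor of B-cell commitment, had means of 16.0 in PIR- wt and 15.6 in PIR- KO and an interaction of -0.52. The summed level of the list was 243.3 to 286.7 in PIR+ wt, 196.4 to 267.2 in PIR+ KO, 1511.3 to 1899.4 in PIR- wt and 1463.3 to 2128.3 in PIR- KO libraries. Whether B-lineage cells among the PIR+ cells had a part in the Cd79a value was not tested.

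For 3 genes the interaction was positive, and each rose in PIR+ cells. Gimap4 (chromosome 6, 48684549 to 48692060), a GTPase of lymphocytes, was 19.7, 18.4 and 10.8 in PIR+ wt and 58.2, 52.4 and 66.2 in PIR+ KO. It was 7.4, 8.5 and 7 in PIR- wt and 4.8, 11 and 8.8 in PIR- KO. The genotypes stood far apart in PIR+ cells and overlapped in PIR- cells, and the interaction was 1.80 ± 0.39 (SE, adjusted p = 0.00585). Of 5 tested Gimap genes Gimap4 alone was called, beside 0.501% of all tested genes, and the list median was 0.41, beside -0.12. Gimap6 rose in PIR- cells, by 1.24, and its interaction was -0.62 (95% interval -1.41 to 0.18). Gimap8 had an interaction of 1.08 (95% interval -0.05 to 2.22).

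Pnp (chromosome 14, 50931082 to 50965237), the purine salvage enzyme whose loss impairs T cells, was 66.3, 78.3 and 83 in PIR+ wt and 199.6, 173.3 and 219.8 in PIR+ KO. In PIR- cells it was 110.8, 101.5 and 93.1 in wt and 109.6, 119.3 and 133 in KO. Pnp was thus the 1 called gene whose order of subsets turned, with a PIR- mean of 134% of the PIR+ mean in wt and 61.1% in KO. The interaction was 1.13 ± 0.26 (SE, adjusted p = 0.00776). Pnp2, a copy within the annotated span of Pnp, was 1, 1.3 and 1 in PIR+ wt and 13, 10.8 and 12.2 in PIR+ KO, and its interaction of 2.41 was not called (adjusted p = 0.108). Reads of these near-identical genes may be divided between them. Mmrn1, which encodes the platelet and endothelial protein multimerin 1, was 0, 0 and 1.4 in PIR+ wt and 3.6, 6.4 and 11.4 in PIR+ KO. Its PIR- means were 8 in wt and 8.2 in KO, and its interaction was 2.51 ± 0.63 (SE, adjusted p = 0.0267).

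**Figure D3:**
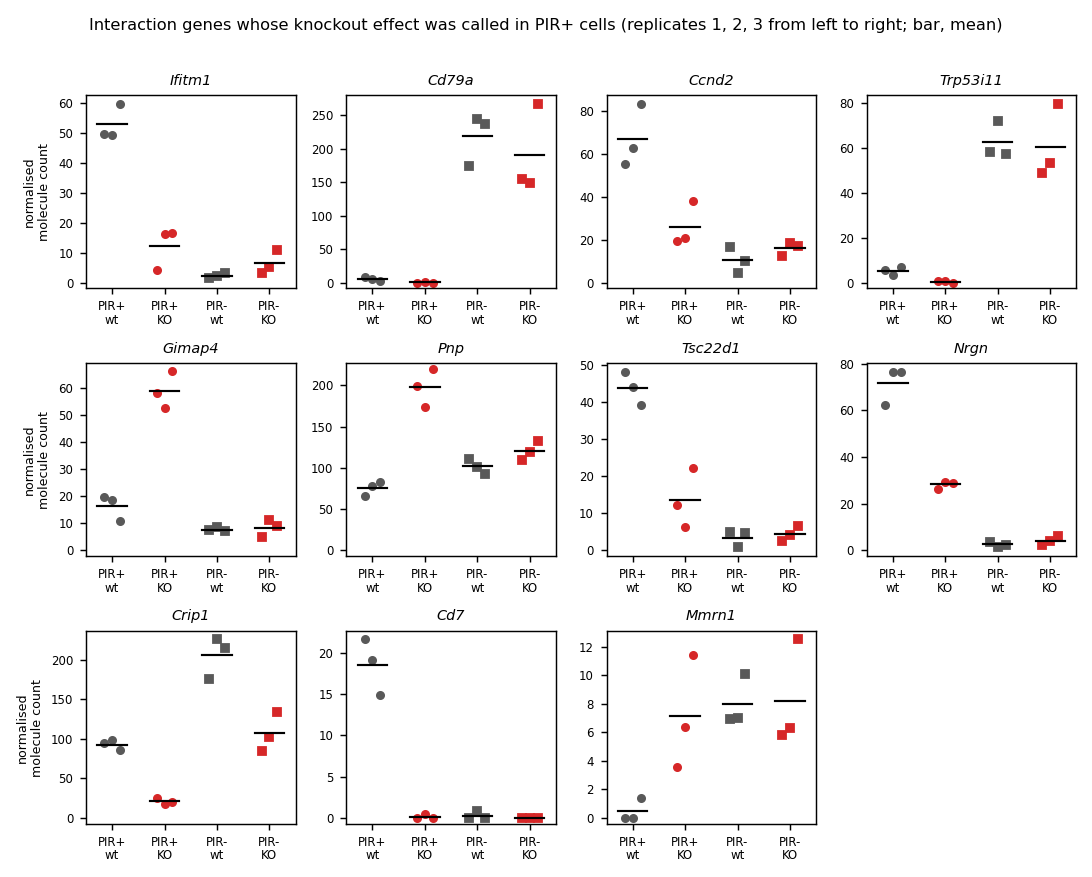
Normalised molecule counts per library (y axis, linear) of the 11 interaction genes whose knockout effect was called in PIR+ cells, in the 4 groups of 3 libraries (x axis), with a bar at the mean. PIR+ KO circles sit below PIR+ wt circles for 8 genes and above them for Gimap4, Pnp and Mmrn1, with no overlap.

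Ifitm1, Cd79a, Ccnd2, Trp53i11 and Pnp were called in all 12 fits that leave out 1 library. Gimap4 lost the call without PIR+ wt replicate 3 (1.54), with adjusted p from 0.00216 to 0.0519 over these fits. Tsc22d1 lost it without PIR- wt replicate 2 (-1.61), PIR+ KO replicate 2 (-1.76) or PIR- KO replicate 3 (-1.89), with adjusted p from 0.00043 to 0.117. Nrgn lost it without PIR+ wt replicate 2 (-1.75), PIR+ wt replicate 3 (-1.75) or PIR- KO replicate 3 (-1.53), with adjusted p from 0.00113 to 0.0817. Crip1 lost it without PIR+ wt replicate 2 (-1.10), PIR- wt replicate 1 (-1.03), PIR+ KO replicate 2 (-1.04) or PIR- KO replicate 3 (-0.97), with adjusted p from 0.00403 to 0.104. Cd7 lost it without PIR+ wt replicate 1 (-3.68), PIR+ wt replicate 2 (-3.77) or PIR- KO replicate 1 (-3.80), with adjusted p from 0.0212 to 0.116. Mmrn1 kept it in 5 fits. It lost it without PIR+ wt replicate 1 (2.30) or 2 (2.30), PIR- wt replicate 3 (2.35), PIR+ KO replicate 2 (2.52) or 3 (2.15), or PIR- KO replicate 1 (2.33) or 2 (2.38), with adjusted p from 0.00454 to 0.156. Without the 5 globin-rich libraries, Ifitm1 (-3.26), Cd79a (-2.73) and Crip1 (-1.71) were called and the other 8 were not, among them Ccnd2 (-1.14) and Gimap4 (1.21). With the log2 globin sum as a term, 9 of the 11 were called and Nrgn (-1.57) and Cd7 (-3.71) were not.

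Within each embryonic day of the source name, all 22 interactions had the sign of the pooled value, and few were called. Each day holds 6 libraries and leaves 2 of the 4 groups with a single library, which is assumed to vary like the others. The labelled day may be wrong for the 6 libraries in which title and markers field disagree. The split therefore follows the label and cannot serve as a check on age. At day E12.5 the first set ran from -2.60 to -0.65, and at day E14.5 from -2.71 to -0.65. The 8 negative genes of the second set ran from -3.99 to -0.85 and from -4.41 to -1.36, and the 3 positive genes from 1.42 to 4.10 and from 0.95 to 1.88. Cd79a was called at day E12.5 (-2.41), and Ifitm1 (-4.41) and Gpr171 (-2.71) at day E14.5. Ifitm1 was -1.70 at day E12.5 and Tyrobp was -2.39 at day E12.5 and -0.65 at day E14.5, and whether these values differ between days was not tested.

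A contrast to the 22 genes is given by genes whose knockout effect was called in both subsets and whose interaction was not, of which 5 are described. Cbfb (chromosome 8, 105170674 to 105217989), the subunit that pairs with Runx proteins on DNA, was 55.8, 44.1 and 50.8 in PIR+ wt and 12.1, 15.7 and 16.0 in PIR+ KO. It was 36, 34.1 and 33.4 in PIR- wt and 6.4, 14.4 and 18.4 in PIR- KO. The genotypes stood apart in both subsets, and the effects were -1.72 and -1.45. The interaction was -0.27, with a 95% interval from -0.98 to 0.44. Lgals1, which encodes galectin-1, also fell in both subsets, with an interaction of 0.20 (-0.37 to 0.78). Cd48 (a surface ligand of the SLAM family), Egfl7 and Eltd1 rose in both. Their interactions were -0.62 (-1.46 to 0.21), -0.21 (-0.80 to 0.37) and -0.38 (-1.39 to 0.63). These intervals leave room for differences of more than 1 log2 unit in Cd48 and Eltd1.

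Runx genes had no called interaction, 0 of 7 tested members of the Runx and Cbfb list by limma, also without adjustment. Over all tested genes 0.501% were called and 5.53% had an unadjusted p under 0.05, so 0 of 7 is near those shares. Runx1 had an interaction of -0.14 (95% interval -0.75 to 0.48), Runx2 of -0.96 (-2.09 to 0.17) and Runx3 of -0.76 (-1.74 to 0.21). Among E proteins and their Id inhibitors 0 of 6 were called and 2 had an unadjusted p under 0.05, beside 0.501% and 5.53% of all tested genes. Id2, an inhibitor needed for innate lymphoid cells, was 38.1, 73 and 51.5 in PIR+ wt and 17, 15.2 and 28.1 in PIR+ KO, and at most 1.6 in a PIR- library. Its interaction was -1.46 (adjusted p = 0.437, 95% interval -2.54 to -0.39). Il7r, the interleukin-7 receptor, had an interaction of -0.57 (-1.32 to 0.17). Of the PIR genes themselves 0 of 6 were called, also without adjustment, which is near the 0.501% and 5.53% of all tested genes. Pira2 was 28.2, 35.7 and 33.1 in PIR+ wt and 24.1, 14.3 and 9.3 in PIR+ KO, an interaction of -1.07 (-2.34 to 0.20) that comes from PIR+ cells alone, since it was at 0 in all PIR- libraries.

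Globin and erythroid genes had the largest list median, 2.45 for 6 tested genes, beside -0.12 for all tested genes. None of the 6 was called, although all 6 had an unadjusted p under 0.05, beside 5.53% of all tested genes. Hbb-b2, an adult beta globin, was 5.1, 6.6 and 248.8 in PIR+ wt, 205, 9.9 and 9.4 in PIR+ KO, 30.5, 430.5 and 445.3 in PIR- wt, and 318.9, 9.4 and 5.1 in PIR- KO. Each group held both high and low libraries, and the interaction was 3.08 ± 0.94 (SE, adjusted p = 0.153). Tfrc, the transferrin receptor, went the other way within this list, with means of 28 in PIR+ wt, 15 in PIR+ KO, 26.1 in PIR- wt and 35 in PIR- KO. It was the first gene outside the threshold together with Beta-s, a globin entry (adjusted p = 0.0511 for both). In a fit over all chromosomes both were called, together with Irf2bp2 and the X-linked gene Tspan6.

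The housekeeping, DNA replication and mitosis lists described here held no called interaction, beside 0.501% of all tested genes. The list of D cyclins, kinases and inhibitors held Ccnd2. For 73 tested cytosolic ribosomal protein genes the median was -0.17, with 71 below 0, beside -0.12 for all genes, of which 35.8% lay above 0. After scaling it was -0.06. For 70 mitochondrial ribosomal protein genes the median was -0.11, for 71 respiratory chain genes -0.09 and for 36 proteasome genes -0.17. After scaling these medians were -0.00, 0.01 and -0.06, so that the sign of the respiratory chain median turned. Among 35 DNA replication genes the median was 0.08 and among 30 mitosis genes 0.24, after scaling 0.19 and 0.35. The numbers with an unadjusted p under 0.05 were 1, 3, 2, 1, 0 and 2 in the order of these lists, beside 5.53% of all tested genes. Spc25 and Ube2c, which act in mitosis, were called only after scaling (1.39 and 0.90).

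**Figure D4:**
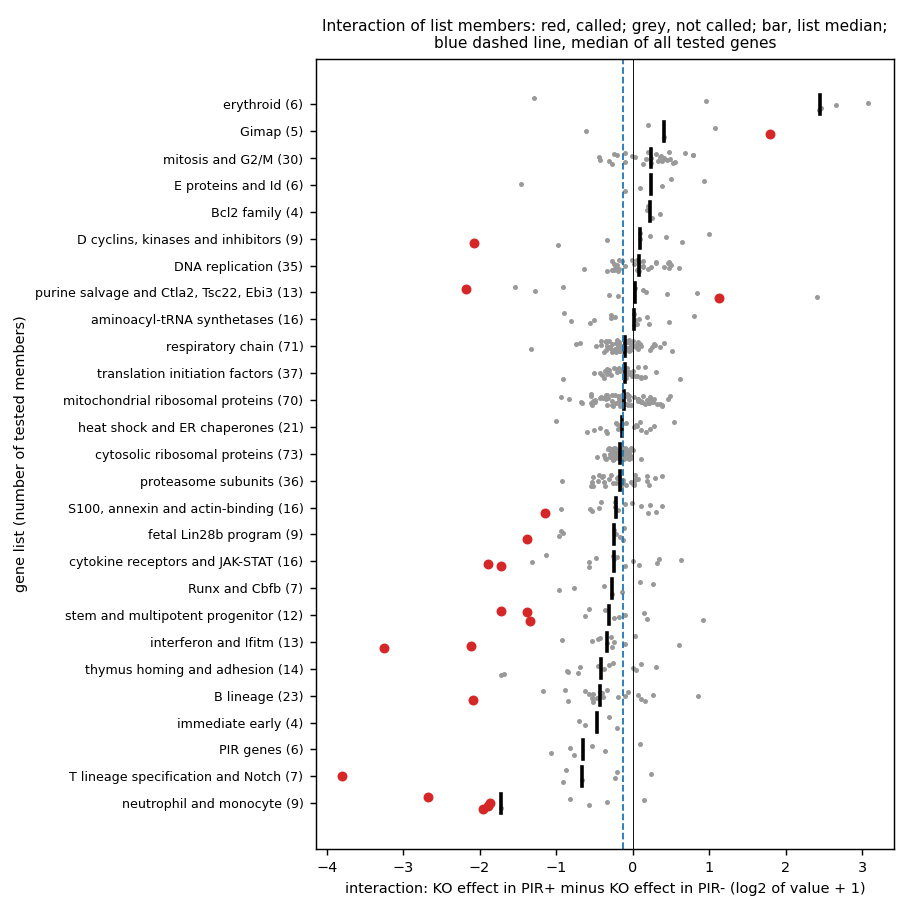
Interaction (x axis, log2 of value + 1) of each tested member of the gene lists with at least 4 tested members (y axis, with the number tested). Red points passed the test, grey points did not, black bars are list medians and the dashed line is the median of all tested genes, -0.12. Called members sit on both sides, and the neutrophil and monocyte list has 4 of them, all at the negative end.

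The 250 bases before the RefSeq start sites (GRCm38.p6) were searched for the core letters of the Runx motif (TGTGGT) and of the ETS motif (GAGGAA), on both strands. Of the 22 called genes 17 had a window. TGTGGT was found in 3 of the 17 genes (17.6%), against 15.9% of all autosomal genes and 12.2% of tested genes with a window. GAGGAA was found in 6 of 17 (35.3%), against 26.1% and 26.6%. Such matches describe letters and not binding. A window of Plac8 (chr5:100572206-100572455, minus strand), from the first set, and that of Gimap4 (chr6:48684328-48684577, plus strand), from the second, are printed because both hold both motifs. Capitals mark the matches, TGTGGT or its reverse complement ACCACA, and GAGGAA or its reverse complement TTCCTC.
Plac8: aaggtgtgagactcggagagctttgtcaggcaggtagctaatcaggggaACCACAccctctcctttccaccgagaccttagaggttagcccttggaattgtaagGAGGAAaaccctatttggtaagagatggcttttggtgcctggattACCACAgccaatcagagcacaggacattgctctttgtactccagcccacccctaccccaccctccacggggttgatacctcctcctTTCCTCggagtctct
Gimap4: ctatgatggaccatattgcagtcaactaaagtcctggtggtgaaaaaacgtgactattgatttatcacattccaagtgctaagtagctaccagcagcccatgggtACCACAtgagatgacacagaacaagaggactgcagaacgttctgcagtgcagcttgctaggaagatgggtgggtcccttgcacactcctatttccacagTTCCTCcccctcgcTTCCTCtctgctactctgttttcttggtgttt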

How the data were processed

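RNA of 100-cell tubes was measured by oligo-dT priming with a molecular barcode, template switching and PCR with ERCC spike-ins, per the labels' protocols. The submitters' processing notes name TopHat2, DESeq2 and mm10 without versions. The deposited values are a normalised signal: molecule counts divided by a factor for each library, rounded to 1 decimal. Of values under 15, 93.0% to 94.2% lay within 0.055 of a multiple of 1 step per library. The values were not turned back into whole molecules for the fit, and no count model was used. Another deposited column holds the authors' p-value for a comparison of groups, used only where named. The depth in reads is not given in the sources used here.

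Groups follow the titles. A constant of 1 was added before log2, and genes that reached 10 in 3 or more libraries were kept. Of 4542 such genes 4395 were autosomal. The 4 group means were fitted with limma 3.58.1 (R 4.3.3, trended prior), and p-values were adjusted by the Benjamini-Hochberg method over all tested genes at 0.05. The fit was tested on simulated data. Figures used Python 3.11.15 and matplotlib 3.10.9. Genes named are all with a called interaction, up to 12 in a direction and filled to 6, up to 8 called per direction for each knockout effect, up to 3 per list by interaction p, and Cbfb, Runx1, Runx3, Kit, Il7r, Lilrb3, Ccr9, Ccr7, Cd7, Cd34 and Id2. The text describes only some of these, and Sfpi1, Irf8, Coro1a, Mycn, Lmo2, Hlf, Ebf1, Vpreb1, Vpreb3, Igll1 and Ifitm2 were added after their values were seen. The genes and the 32 lists were chosen with earlier results of these data known. Alternatives were another scaling, other constants and filters, other sets of libraries, and terms for day, markers field, globin and replicate number. 1 gene called in both subsets is not reported here. Promoter windows came from RefSeq (GRCm38.p6).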

Additional observations from a re-analysis of the deposited data

Results flagged for a closer look

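The interaction passed the limma test of the difference itself for 22 genes, and the values are interactions on the log2 scale. Where the knockout effect was called in PIR- cells alone they were -2.67 for Ncf1, -1.95 for Mpo, -1.72 for Flt3, -1.39 for Hmga2, -1.87 for Tyrobp, -1.40 for Emb, -1.34 for Cd34, -1.69 for Gpr171, -2.12 for Ifitm3, -1.05 for Plac8 and -1.89 for Csf1r. Where it was called in PIR+ cells they were -3.25 for Ifitm1, -2.09 for Cd79a, -2.07 for Ccnd2, -2.11 for Trp53i11, -2.17 for Tsc22d1, -1.80 for Nrgn, -1.14 for Crip1, -3.80 for Cd7, 1.80 for Gimap4, 1.13 for Pnp and 2.51 for Mmrn1. Cd7 passed the filter through 1 group alone and is listed as a description. On untransformed values the sign turned for Hmga2, Cd34, Csf1r, Cd79a and Crip1.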

How the results depend on the processing

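In 27 alternatives on the log scale, called genes kept their call in 407 of 591 refits, lost it in 183 and had the other sign in 1, and the cause was not tested. The interaction was called for 22 genes, and for 3 with no filter on low values, 4 within day E12.5, 2 within day E14.5, 14 with agreement of markers field and title as a term, 10 in the libraries where these match, 0 where they differ (188 at an unadjusted p under 0.05 by limma), 6 without the globin-rich libraries and 12 on untransformed values. Leaving out 1 library gave 14 to 32. The knockout effect in PIR+ cells was called for 37 genes, and for 21 with a minimum of 20, 13 within day E12.5, 8 within day E14.5, 1 where the fields differ, 24 without the globin-rich libraries and 58 on untransformed values (26 to 41 without 1 library). In PIR- cells it was called for 58, and for 30 with no filter, 12 within day E12.5, 29 within day E14.5, 101 where the fields match, 6 where they differ, 33 without the globin-rich libraries and 8 on untransformed values (32 to 89 without 1 library). PIR+ against PIR- was called in wild type for 1950 genes (1785 higher and 165 lower), and for 1000 after scaling (512 and 488), 1248 with a minimum of 20, 865 within day E12.5, 1027 where the fields match, 952 where they differ and 686 without the globin-rich libraries (1277 to 2011 without 1 library). In KO it was called for 1124 (989 and 135), and for 694 after scaling (355 and 339), 748 with a minimum of 20, 509 within day E14.5, 373 where the fields differ and 562 without the globin-rich libraries (645 to 1374 without 1 library). The interaction of library sums was 0.442 at day E12.5 and -0.557 at day E14.5 (-0.198 to 0.0165 without 1 library). The sign turned on untransformed values for Hmga2 (13.9), Cd34 (15.5), Csf1r (1.73), Cd79a (23.4) and Crip1 (26.9), and for Tyrobp (0.27) where the fields match. With 0.1 added, Cd7 (-5.61) and Tsc22d1 (-2.46) lost the call, and with 5 added Cd34 (-0.93), Csf1r (-0.74), Cd79a (-0.75), Trp53i11 (-0.85) and Mmrn1 (1.11) did.

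Over genes, the deviations of same-numbered libraries from their group means had correlations of -0.109 to 0.170, with 1 of 18 over 0.1, and the labels tie the numbers to no shared litter or batch, so pairing was not established. Replicate 3 had the highest size factor of its group in all 4 groups (1.29, 0.905, 1.46 and 1.09), a shift by number that these correlations do not show. With the replicate block 32 genes were called for the interaction, 21 of them shared with the 22, and 198 for the knockout effect in PIR- cells. The median standard error of an interaction was 0.39.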
